A study of Mus musculus with 22 samples.

Results

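Complement genes were followed in male C57BL/6J mice, in the nucleus accumbens, a part of the ventral striatum known for its role in reward. The set held 9 genes of the 24061 in the count table and was chosen by name: the chains of C1q (C1qa, C1qb, C1qc), the components C3 and C4b, the inhibitors Serping1 and Cd59a, and the receptors C3ar1 and C5ar1. All 9 passed the filter on low counts, as did 14564 genes in all. Bulk tissue RNA was sequenced in 22 libraries, and all groups were conventionally raised mice aged 7 to 9 weeks. The water plus saline group (6 libraries) kept a normal microbiome and received saline. The water plus morphine group (5 libraries) kept a normal microbiome and received morphine at 20 mg/kg per day for 7 days. The antibiotics plus saline group (6 libraries) had its gut microbiome depleted by nonabsorbable antibiotics and received saline, and the antibiotics plus morphine group (5 libraries) had both the depletion and the same morphine. The labels do not say whether each library came from a separate animal, so p-values measure the spread between these libraries.

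Complement is a cascade of plasma and tissue proteins that tags material for removal. In the classical pathway, C1q recognises a target and its proteases cleave C4 and C2, which leads to cleavage of C3, while fragments of C3 and C5 signal through receptors on myeloid cells. In brain, microglia are the known main source of C1q, astrocytes and neurons are known sources of C4, and complement is known for tagging synapses that microglia engulf.

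The 3 C1q genes lie next to each other in the mouse genome and their levels are described together below. The promoters of C1qb and C1qc are therefore shown, with that of C3 for contrast. That of C1qa was not in the reference. The sequences are RefSeq's on GRCm38.p6, from 250 bases before to 50 after the start of the gene, 5′ to 3′ along the gene. The reference held promoters for 6 of the 9 genes: C1qb, C1qc, C3, C3ar1, C5ar1 and Cd59a. Capitals mark matches, on either strand, to the motifs listed after the sequences. C1qb lies on the minus strand at chr4:136886151-136886450, C1qc on the minus strand at chr4:136892865-136893164, and C3 on the minus strand at chr17:57228087-57228386.
C1qb: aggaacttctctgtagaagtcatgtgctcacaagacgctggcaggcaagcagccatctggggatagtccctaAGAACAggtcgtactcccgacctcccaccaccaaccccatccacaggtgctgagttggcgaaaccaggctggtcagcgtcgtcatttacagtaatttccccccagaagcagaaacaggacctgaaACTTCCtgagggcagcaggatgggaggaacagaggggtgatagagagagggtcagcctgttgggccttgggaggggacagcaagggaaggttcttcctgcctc
C1qc: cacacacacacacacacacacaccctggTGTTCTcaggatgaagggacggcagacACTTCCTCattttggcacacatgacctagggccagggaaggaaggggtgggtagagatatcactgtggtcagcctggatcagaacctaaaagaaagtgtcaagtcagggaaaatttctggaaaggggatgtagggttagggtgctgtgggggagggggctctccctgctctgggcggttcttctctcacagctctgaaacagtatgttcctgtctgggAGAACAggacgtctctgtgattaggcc
C3: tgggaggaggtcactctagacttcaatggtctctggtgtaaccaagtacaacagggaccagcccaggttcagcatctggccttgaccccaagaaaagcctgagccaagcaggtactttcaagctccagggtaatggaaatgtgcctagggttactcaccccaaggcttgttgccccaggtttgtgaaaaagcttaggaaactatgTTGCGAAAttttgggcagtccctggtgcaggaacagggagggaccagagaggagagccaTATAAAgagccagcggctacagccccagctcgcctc
The C1qb promoter held an ETS core, GGAAGT, read on the opposite strand at -53 to -48 from the start, and a single arm of the glucocorticoid response element, AGAACA, at -178 to -173. The C1qc promoter held a PU.1 site, GAGGAAGT, on the opposite strand at -195 to -188, which contains an ETS core, and arms of the glucocorticoid response element at -222 to -217 and at 24 to 29. PU.1 is the ETS factor that defines the myeloid lineage. The C3 promoter held a C/EBP site, TTGCNNAA, at -45 to -38. It also held the letters of the TATA box, TATAAA, at 15 to 20, which is after the annotated start. Of 20290 RefSeq promoters of this length, 25.1% held the ETS core, 3.13% the PU.1 site, 16.3% the glucocorticoid arm, 10.1% the C/EBP site and 12.2% the TATA box. None of the 6 promoters held the kappa-B letters GGANTTTCC (1.35% of all promoters) or the STAT letters TTCNNNGAA (7.94%). The letters GAAANNGAA of the interferon-stimulated response element, present in 7.95% of all promoters, were found in those of Cd59a and C5ar1. A match is a description of the letters and was not tested for binding.

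Total counts ran from 11789713 to 19755139 per library, of which 9357299 to 15330947 fell in genes. Levels are in CPM, a gene's count relative to the library's counts in genes, scaled by TMM. Changes are log2 fold changes from the edgeR quasi-likelihood test, with their standard error (SE) and a p-value adjusted over all 14564 genes (Benjamini-Hochberg, two-sided), and past the threshold means an adjusted p under 0.05. The 5 pairwise comparisons share control libraries, so their values are given side by side and are not independent of each other. Library 6 of the antibiotics plus saline group and library 4 of the antibiotics plus morphine group held the most Malat1, a nuclear RNA, and the summed level of 4 nuclear RNAs ran from 1870 to 5100 CPM over all libraries. Without both libraries C1qb no longer passed with morphine in antibiotic mice (-0.23, adjusted p = 0.0787 by edgeR) or with antibiotics under saline (-0.31, adjusted p = 0.0565 by edgeR), and the counts of the 9 genes in the other comparisons these libraries enter did not change. Neutrophil and lymphocyte markers summed to at most 1.17 CPM in any library.

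Counted over the 9 genes, 3 were lower with morphine in water mice, where 2.67% of all genes were lower past the threshold. With morphine in antibiotic mice 2 were lower, against 6.62% of all genes, and with antibiotics under saline 2 were lower, against 0.865%. With antibiotics under morphine 2 were lower, against 9.58% of all genes, and 1 was higher, against 8.42%. With both treatments, compared with untreated mice, 3 were lower, against 18.2% of all genes, and 2 were higher, against 17.6%. The lower genes were C1q chains in every case, and the higher ones were C4b in the last 2 comparisons and C3 in the last. For the difference between the morphine changes, 0 of the 9 genes passed by edgeR, DESeq2 or limma-voom, where edgeR called 0.467% of all genes. At an unadjusted p under 0.05 by edgeR 1 of the 9 genes, C1qc, was reached, against 12.3% of all genes. The median change over the 9 genes was -0.24, -0.10, -0.11, 0.20 and 0.11 in the 5 pairwise comparisons in that order, with medians of all genes between -0.002 and 0.006.

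**Figure D1:**
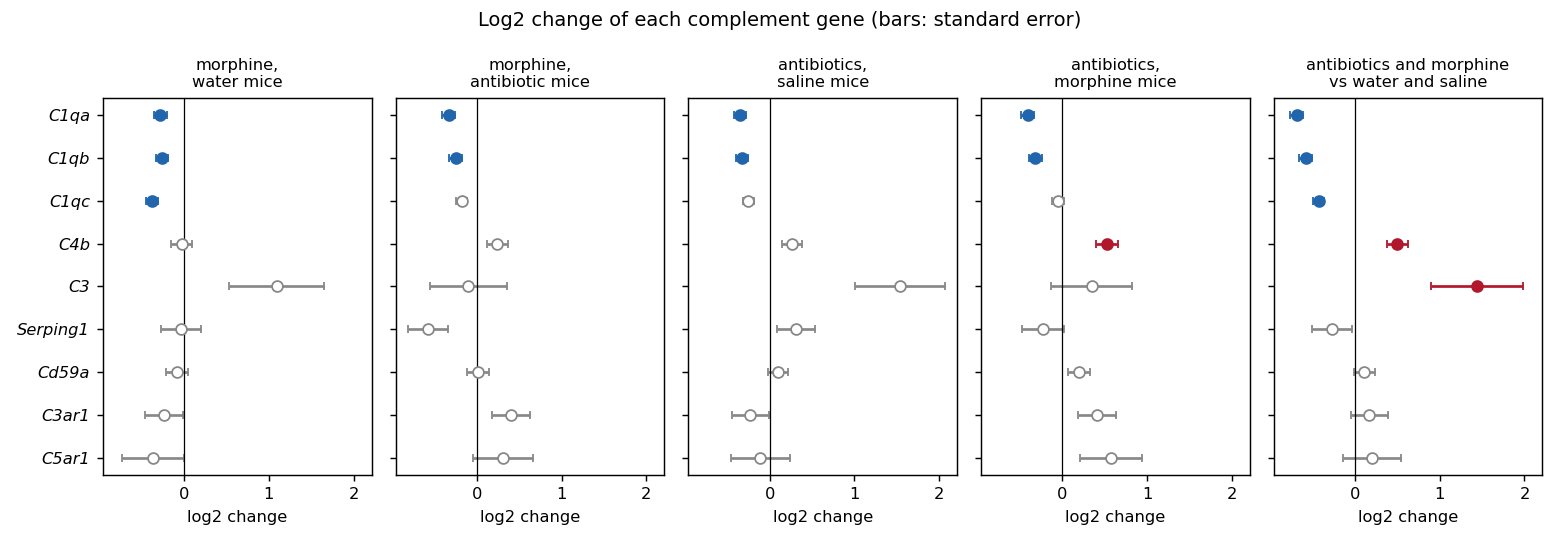
Log2 change (horizontal axes) with its standard error for the 9 genes in 5 comparisons. Filled points passed the threshold, blue lower and red higher, and open points did not. C1qa and C1qb are filled and left of 0 in every panel, from -0.25 to -0.69, and C4b is filled and right of 0 in the last 2.

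Groups that did not overlap, with the first named group lower, were seen for 3 genes with morphine in water mice (all C1q chains), against 2.73% of all genes. They were seen for C1qa with morphine in antibiotic mice, against 3.17%, for C1qb with antibiotics under saline, against 1.01%, and for C1qa with antibiotics under morphine, against 6.82%. With both treatments the 3 chains again lay wholly below untreated mice, against 10.8% of all genes. C4b was the single gene wholly higher, with antibiotics under morphine, against 6.26%.

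C1qa and C1qb were lower past the threshold in each treated group than in untreated mice. C1qc was so with water plus morphine and with both treatments, and did not pass with antibiotics plus saline. With a measure of each library's tilt with transcript length as a covariate, only C1qa with both treatments still passed among these comparisons. Summed over the 3 chains, C1q averaged 205 ± 10.7 CPM (SD, n = 6) with water plus saline, 166 ± 11.6 (n = 5) with water plus morphine, 165 ± 16.7 (n = 6) with antibiotics plus saline and 139 ± 10.3 (n = 5) with antibiotics plus morphine. Per kilobase of transcript, the chains were the most abundant of the 9 genes, at 59.5 CPM per kb for C1qa, 68.1 for C1qb and 57.2 for C1qc in untreated mice. C4b followed at 6.62 CPM per kb, then Cd59a at 2.68, Serping1 at 1.92, C3ar1 at 0.489, C5ar1 at 0.267 and C3 at 0.0608.

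**Figure D2:**
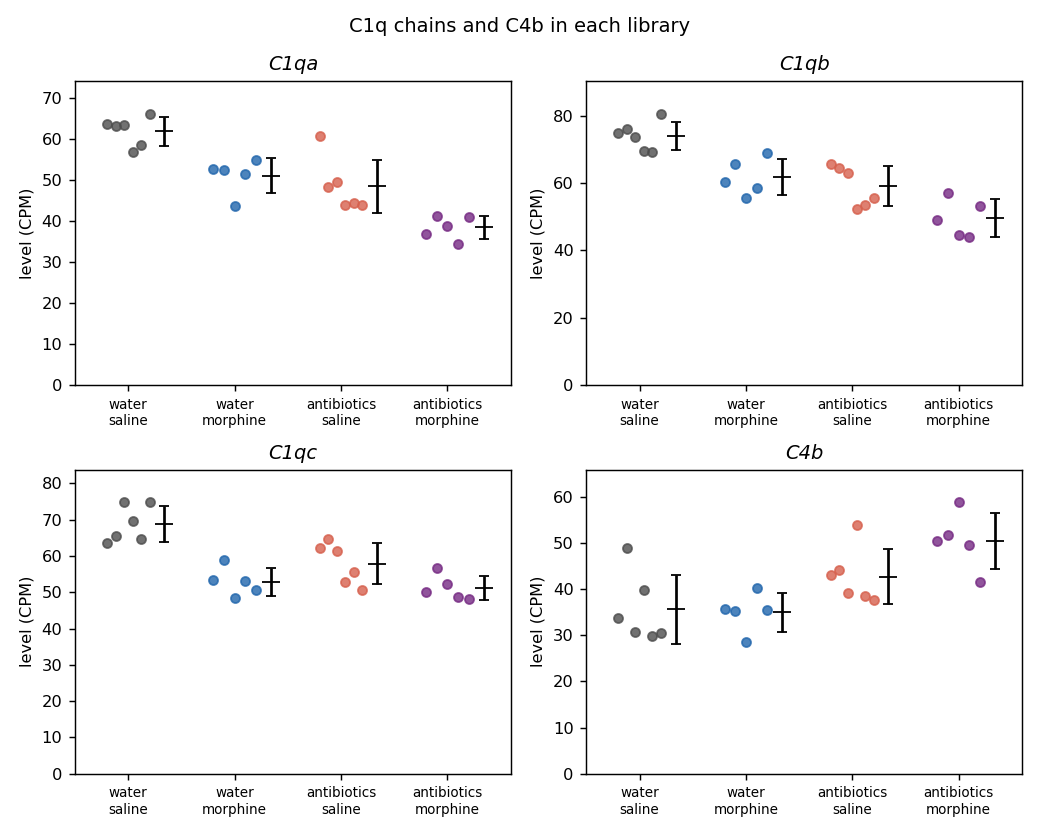
Level of the C1q chains and of C4b in CPM (vertical axes, from 0) in each library, by group, with the mean and SD as the cross and bar. The C1qa points of mice with both treatments, from 34.5 to 41.2 CPM, lie below those of every other group, while C4b is highest on average in that group, at 50.4 CPM.

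C1qa encodes the A chain of C1q. Its lowest, median and highest levels in water plus saline mice were 56.8, 63.2 and 66.2 CPM. The water plus morphine libraries stood at 52.8, 52.4, 43.7, 51.4 and 54.8 CPM, all below the untreated range. The antibiotics plus saline libraries ran from 43.9 through a median of 46.3 to 60.8 CPM, and library 1, at 60.8, was the only library of that group inside the untreated range. The antibiotics plus morphine libraries stood at 36.8, 41.2, 38.7, 34.5 and 41.1 CPM and overlapped no other group. The C1qa level therefore ranked water plus saline above water plus morphine, then antibiotics plus saline, then antibiotics plus morphine, and the middle pair overlapped.

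C1qa fell past the threshold in all 5 pairwise comparisons. With morphine it changed by -0.28 (SE 0.0754, adjusted p = 0.0276 by edgeR) in water mice and by -0.33 (SE 0.0772, adjusted p = 0.0068 by edgeR) in antibiotic mice. With antibiotics it changed by -0.35 (SE 0.0724, adjusted p = 0.0172 by edgeR) under saline and by -0.41 (SE 0.0797, adjusted p = 0.00106 by edgeR) under morphine. Between mice with both treatments and untreated mice the change was -0.69 (SE 0.0767, adjusted p = 8e-07 by edgeR), a ratio of 0.621. All treated libraries lay below the mean of the group they were compared with in each of these. The call in water mice was lost without any single one of water plus saline libraries 3, 4 or 9 or water plus morphine library 4 (adjusted p up to 0.0693) or with the length slope described further on as a covariate (adjusted p = 0.957), and the call under saline without antibiotics plus saline library 4 (adjusted p = 0.0624) or with only the groups compared in the fit (adjusted p = 0.0535).

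C1qb, the B chain, followed nearly the same order. Water plus saline libraries ran from 69.4 through a median of 74.3 to 80.7 CPM, and those with water plus morphine stood at 60.5, 65.6, 55.5, 58.6 and 69.1 CPM. Antibiotics plus saline libraries ran from 52.2 through 59.3 to 65.7 CPM, and those with antibiotics plus morphine stood at 49.1, 57.1, 44.7, 43.9 and 53.2 CPM. Every treated library was below the lowest untreated library, and the treated groups overlapped each other. C1qb changed by -0.26 (SE 0.0748, adjusted p = 0.037 by edgeR) with morphine in water mice and by -0.25 (SE 0.0761, adjusted p = 0.0302 by edgeR) in antibiotic mice. Antibiotics gave -0.33 (SE 0.0718, adjusted p = 0.0251 by edgeR) under saline and -0.32 (SE 0.0787, adjusted p = 0.00654 by edgeR) under morphine. The change with both treatments was -0.58 (SE 0.0757, adjusted p = 5.7e-06 by edgeR). Leaving out single libraries ended the call in 7 of 11 cases for morphine in water mice (water plus saline 3, 4, 5 and 9, water plus morphine 2, 4 and 5), in 6 of 11 for morphine in antibiotic mice (antibiotics plus saline 1, 2 and 3, antibiotics plus morphine 1, 3 and 4) and in 5 of 12 for antibiotics under saline (water plus saline 3 and 9, antibiotics plus saline 4, 5 and 6). The adjusted p then reached 0.0887, 0.0933 and 0.0821. With only the groups compared in the fit, the call for morphine in antibiotic mice was also lost (adjusted p = 0.07).

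C1qc, the C chain, did not keep the order of the other chains. Water plus saline libraries ran from 63.5 through a median of 67.6 to 74.8 CPM. The water plus morphine libraries stood at 53.5, 58.9, 48.4, 53.0 and 50.7 CPM, below every untreated library. Antibiotics plus saline libraries ran from 50.5 through 58.6 to 64.7 CPM, and antibiotics plus morphine libraries stood at 50.2, 56.6, 52.3, 48.8 and 48.1 CPM. The groups given morphine thus lay close together, with means of 52.9 and 51.2 CPM. C1qc fell by 0.38 on the log2 scale with morphine in water mice (SE 0.0678, adjusted p = 0.00279 by edgeR), the largest of the 3 C1q drops in that comparison, and by 0.43 (SE 0.0679, adjusted p = 4.9e-05 by edgeR) with both treatments.

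The remaining C1qc comparisons did not pass. The value for morphine in antibiotic mice was -0.18 (SE 0.0682, adjusted p = 0.0859 by edgeR), that for antibiotics under saline -0.25 (SE 0.0646, adjusted p = 0.0521 by edgeR) and that for antibiotics under morphine -0.05 (SE 0.0709, adjusted p = 0.703 by edgeR). Leaving out antibiotics plus saline library 6 or antibiotics plus morphine library 2 brought the first past the threshold (adjusted p = 0.0338 and 0.0388), and leaving out antibiotics plus saline library 1, 2 or 3 the second (adjusted p = 0.0334, 0.0358 and 0.0486). DESeq2 also called the second (-0.24, adjusted p = 0.0235). The difference between the C1qc changes with morphine in antibiotic and in water mice was 0.20 (SE 0.096, unadjusted p = 0.0469, adjusted p = 0.397 by edgeR). For C1qa that difference was -0.05 (SE 0.108) and for C1qb 0.01 (SE 0.107).

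The ratio of C1qc to C1qa was chosen after the levels were seen and is given as a description with no test. Its log2 value averaged 0.15 ± 0.11 (SD, n = 6) with water plus saline and 0.05 ± 0.11 (n = 5) with water plus morphine. It averaged 0.26 ± 0.13 (n = 6) with antibiotics plus saline and 0.41 ± 0.11 (n = 5) with antibiotics plus morphine. The ratio in mice with both treatments ran from 0.23 to 0.50. It lay above all water plus morphine libraries, whose highest value was 0.17, and overlapped untreated libraries, whose highest was 0.30. The saline groups overlapped each other as well. The ratio of C1qb to C1qa averaged between 0.26 and 0.36 in the 4 groups.

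Between 6 and 21 of 24 microglia markers were lower in the 4 comparisons that involve antibiotics, and 1 with morphine in water mice. In bulk tissue, fewer microglia and less RNA per microglial cell cannot be told apart. All 24 were detected, and 1 was lower and 1 higher past the threshold with morphine in water mice, against 2.67% and 3.91% of all genes. With morphine in antibiotic mice 14 were lower (6.62% of all genes), with antibiotics under saline 6 (0.865%), with antibiotics under morphine 15 (9.58%) and with both treatments 21 (18.2%). No marker was higher in these 4. The median marker changes were -0.20, -0.32, -0.25, -0.37 and -0.53, against medians of all genes within 0.006 of 0. Some oligodendrocyte and some endothelial markers were lower too in every pairwise comparison, and a few were higher. With both treatments the median change was -0.30 for pericyte and fibroblast, -0.15 for striatal neuron and -0.11 for astrocyte markers. It was 0.21 for border macrophage and 0.74 for choroid and ependymal markers. Of 10 oligodendrocyte markers 3 were lower with morphine in water mice, 7 with antibiotics under saline (median -0.30) and 7 with both treatments (median -0.32), and their summed level had a median of 6700, 6140, 5760 and 5810 CPM with water plus saline, water plus morphine, antibiotics plus saline and antibiotics plus morphine. With morphine in antibiotic mice 3 oligodendrocyte markers were higher, against 6.43% of all genes, and 2 lower (median -0.02). With antibiotics under morphine 3 were lower (median -0.16). Of 12 endothelial markers 3 were lower with morphine in water mice, 1 with antibiotics under saline and 8 with both treatments (median -0.33). With morphine in antibiotic mice 2 were lower. With antibiotics under morphine 4 were lower and 1 higher, against 8.42% of all genes (median 0.02). The part of any of these in the C1q changes was not tested. Summed, the microglia markers had a median of 851 CPM (807 to 871) with water plus saline, 750 (720 to 799) with water plus morphine, 705 (649 to 782) with antibiotics plus saline and 566 (540 to 653) with antibiotics plus morphine. Csf1r, the receptor that microglia need to survive, fell by 0.19 with morphine in water mice and by 0.25 with antibiotics under saline. Sall1 was the marker that was higher with morphine in water mice, by 0.20 (adjusted p = 0.0462 by edgeR). Leaving out 1 library ended that Sall1 call in 9 of 11 cases. With the length slope described further on as a covariate, neither passed in water mice (Csf1r -0.15, adjusted p = 0.726, and Sall1 0.12, adjusted p = 0.856, by edgeR). Olfml3 and Fcrls, markers of homeostatic microglia, fell by 1.71 and 1.40 with both treatments, more than any C1q chain.

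Set against the mean log2 level of the microglia markers in the same library, C1qa and C1qb overlapped between all 4 groups. Relative C1qa averaged 1.51 ± 0.078 (SD, n = 6), 1.41 ± 0.11 (n = 5), 1.45 ± 0.10 (n = 6) and 1.43 ± 0.11 (n = 5) with water plus saline, water plus morphine, antibiotics plus saline and antibiotics plus morphine. Relative C1qb averaged 1.77, 1.68, 1.74 and 1.80 in the same order, and relative C1qc 1.66, 1.46, 1.71 and 1.85. With libraries scaled to the markers, no C1qa or C1qb change passed in any comparison (C1qa -0.08, adjusted p = 0.363, and C1qb 0.03, adjusted p = 0.713, by edgeR with both treatments). C1qc was then lower by a value that did not pass with morphine in water mice (-0.20, adjusted p = 0.11 by edgeR). It was 0.39 higher with antibiotics under morphine (adjusted p = 0.000433 by edgeR) and 0.19 higher with both treatments (adjusted p = 0.038 by edgeR). That scaling raises all genes, with a median of 0.43 and 0.62 in these comparisons, so a relative rise smaller than this is still a fall against the median gene.

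**Figure D3:**
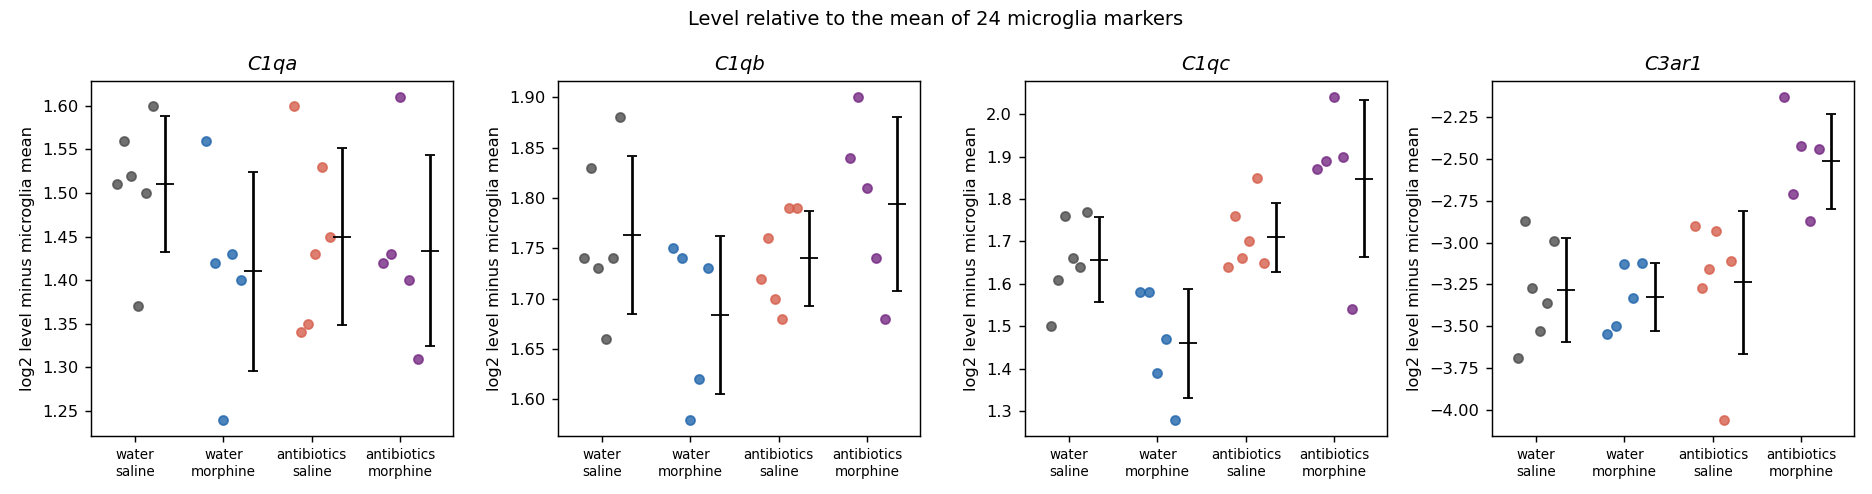
Level of C1qa, C1qb, C1qc and C3ar1 relative to the mean of 24 microglia markers (vertical axes, log2 difference, not starting at 0) in each library, by group, with mean and SD. C1qa spans 1.24 to 1.61 with all groups overlapping, and C3ar1 is highest with antibiotics plus morphine, at -2.87 to -2.13.

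Short transcripts need a separate value, since the C1q chains are short (1040, 1088 and 1203 bases against a median gene of 3266.5) and libraries differed in how their levels tilted with transcript length. The slope over genes of log2 level, taken relative to each gene's mean over libraries, on log2 length averaged -0.051 with water plus saline, 0.0391 with water plus morphine, -0.0178 with antibiotics plus saline and 0.0435 with antibiotics plus morphine. The ranges of the water groups did not overlap, nor did those of untreated mice and mice with both treatments. With that slope as a covariate, the morphine changes in water mice were -0.05 for C1qa, -0.06 for C1qb and -0.21 for C1qc, none past the threshold (adjusted p of 0.957, 0.939 and 0.74 by edgeR), and over all genes the number called fell from 959 to 0. Treatment and slope cannot be told apart in either of these comparisons. The covariate also ended the C1q calls for morphine in antibiotic mice (C1qa -0.17, C1qb -0.12) and for antibiotics under saline (C1qa -0.27, C1qb -0.25). With both treatments it ended those of C1qb (-0.37, adjusted p = 0.0987 by edgeR), C1qc (-0.25, adjusted p = 0.241 by edgeR), C3 (2.81, adjusted p = 0.104 by edgeR) and C4b (0.74, adjusted p = 0.066 by edgeR), and left that of C1qa. Under morphine, where the slopes of both groups overlapped, the antibiotic changes of C1qa (-0.39), C1qb (-0.31) and C4b (0.54) passed with the covariate too.

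C4b, the fourth component that C1 cleaves, rose with antibiotics under morphine and with both treatments. Water plus saline libraries ran from 29.8 through a median of 32.2 to 49.0 CPM, and water plus morphine libraries stood at 35.7, 35.2, 28.5, 40.3 and 35.4 CPM. Antibiotics plus saline libraries ran from 37.6 through 41.1 to 53.8 CPM, and antibiotics plus morphine libraries stood at 50.4, 51.8, 58.8, 49.5 and 41.6 CPM. Every library with both treatments was above every water plus morphine library, while 1 untreated library (library 4, 49.0 CPM) lay inside their range. C4b rose by 0.53 with antibiotics under morphine (SE 0.128, adjusted p = 0.00638 by edgeR) and by 0.50 with both treatments (SE 0.122, adjusted p = 0.0031 by edgeR), the latter a ratio of 1.41. The values for morphine were -0.03 (SE 0.125, adjusted p = 0.932 by edgeR) in water mice and 0.24 (SE 0.122, adjusted p = 0.212 by edgeR) in antibiotic mice, and that for antibiotics under saline was 0.26 (SE 0.119, adjusted p = 0.26 by edgeR). The difference between the morphine changes was 0.26 (SE 0.175, adjusted p = 0.57 by edgeR). Scaled to the microglia markers, C4b also passed with morphine in antibiotic mice (0.56, adjusted p = 0.00352 by edgeR) and with antibiotics under saline (0.57, adjusted p = 0.0033 by edgeR). The median of all genes under that scaling was 0.30 and 0.31 there, and 7927 and 9150 of 14564 genes passed.

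The paralog C4a, which shares sequence with C4b, had values of 0.14 (SE 0.216) with antibiotics under morphine and 0.34 (SE 0.213) with both treatments, neither past the threshold. Scaled to the microglia markers both passed, at 0.57 (adjusted p = 0.0259 by edgeR) and 0.95 (adjusted p = 0.000251 by edgeR). That scaling put the median of all genes at 0.43 and 0.62 there, and 10523 and 12644 of 14564 genes passed. Only reads that aligned to a single place were counted, so the split between the paralogs is uncertain. Among 14 astrocyte markers, 1 was higher and 4 were lower with antibiotics under morphine, against 8.42% and 9.58% of all genes. With both treatments 2 were higher and 5 lower, against 17.6% and 18.2%. Their summed level ran from 5110 to 5490 CPM with water plus saline, from 5320 to 5620 with water plus morphine, from 4900 to 5640 with antibiotics plus saline and from 4930 to 5530 with antibiotics plus morphine. Its part in the C4b change was not tested.

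C4b, the substrate of C1, was also set against C1qa, a part of C1 itself. The log2 ratio of their CPM, not corrected for transcript length, averaged -0.82 ± 0.31 (SD, n = 6) with water plus saline, -0.55 ± 0.11 (n = 5) with water plus morphine, -0.18 ± 0.27 (n = 6) with antibiotics plus saline and 0.39 ± 0.23 (n = 5) with antibiotics plus morphine. The ratio in mice with both treatments, from 0.02 to 0.60, lay above every water library, whose highest was -0.35. Per kilobase of transcript C1qa stayed the more abundant, at 59.5 against 6.62 CPM per kb in untreated mice and 37.0 against 9.37 with both treatments. This ratio was chosen after the levels were seen and carries no test.

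C3, the component on which the pathways converge, was close to the limit of detection. Its counts were 2, 2, 2, 2, 8 and 5 in water plus saline libraries, 4, 5, 19, 12 and 4 with water plus morphine, 6, 13, 2, 22, 11 and 4 with antibiotics plus saline, and 9, 19, 9, 8 and 10 with antibiotics plus morphine. The corresponding means were 0.312, 0.654, 0.946 and 0.869 CPM, and every group overlapped every other. C3 rose by 1.44 with both treatments (SE 0.539, adjusted p = 0.0404 by edgeR). That call was lost in 6 of 11 cases when 1 library was left out (water plus saline 3, 4, 5 or 6, antibiotics plus morphine 1 or 2), and without antibiotics plus morphine library 2 the value was 1.16 (adjusted p = 0.121 by edgeR). The values for morphine in water mice (1.09, SE 0.561) and for antibiotics under saline (1.54, SE 0.528, adjusted p = 0.139 by edgeR) did not pass. Without antibiotics plus saline library 4, which held 22 counts, the latter was 1.08 (adjusted p = 0.361 by edgeR). Scaled to the microglia markers it was 1.84 with all libraries (adjusted p = 0.00637 by edgeR), where the median of all genes was 0.31 and 9150 of 14564 genes passed.

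**Figure D4:**
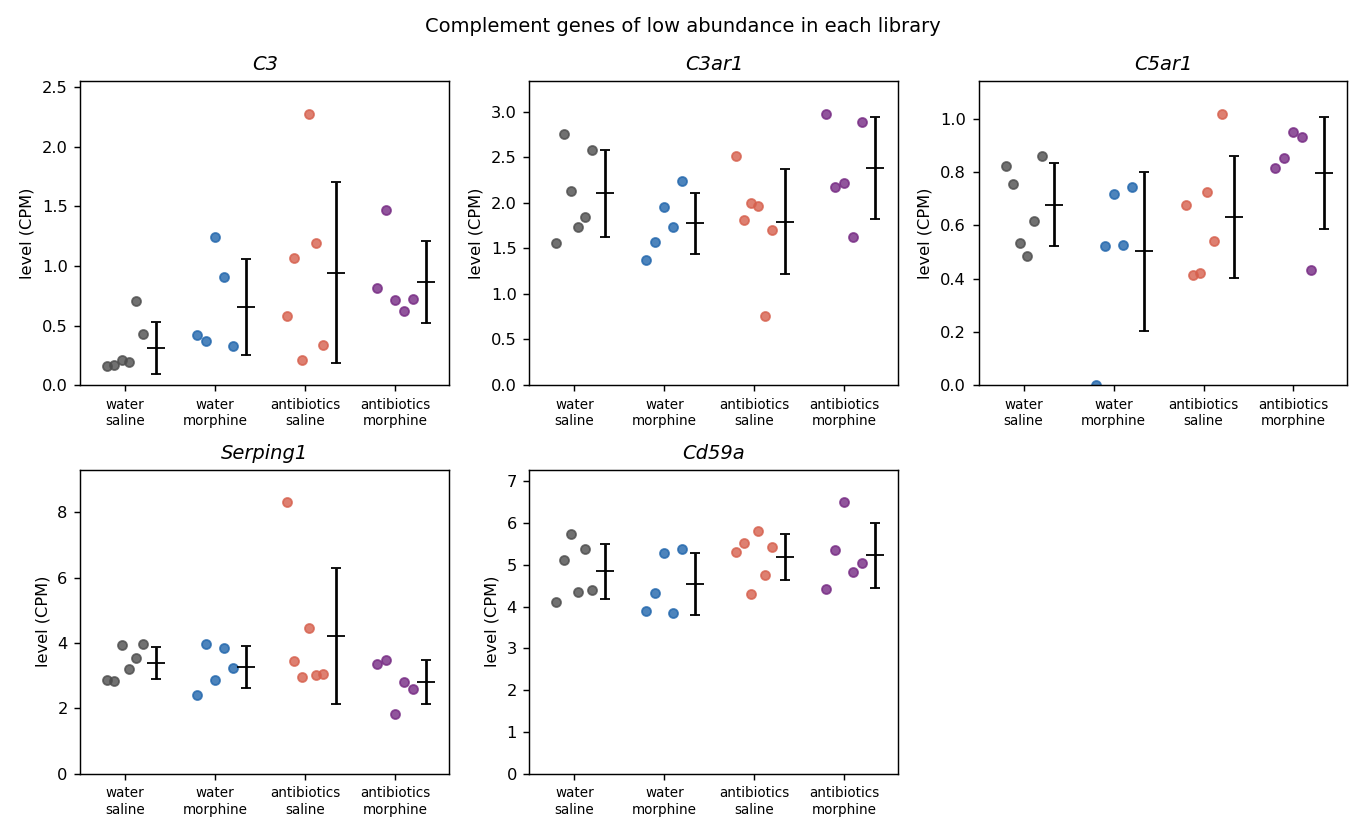
Level of C3, C3ar1, C5ar1, Serping1 and Cd59a in CPM (vertical axes, from 0) in each library, by group, with mean and SD. Groups overlap for all 5 genes, and a single antibiotics plus saline library stands at 8.30 CPM for Serping1.

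The inhibitors did not pass in any comparison under the TMM scaling. Serping1 encodes C1 inhibitor, which inactivates the proteases bound to C1q. It ran from 2.85 through a median of 3.36 to 3.96 CPM with water plus saline, stood at 2.42, 3.96, 2.87, 3.85 and 3.23 CPM with water plus morphine, ran from 2.95 through 3.26 to 8.30 CPM with antibiotics plus saline, and stood at 3.35, 3.49, 1.82, 2.80 and 2.60 CPM with antibiotics plus morphine. The high value was library 1 of the antibiotics plus saline group, which also held the highest Igf2 (64.1 CPM, group median 30.5) and Slc6a13 (11.7 CPM, group median 4.58), genes typical of meningeal fibroblasts. Igf2 and Slc6a13 were found by their likeness to Serping1 over these same libraries, so they are not independent of its high value in that library. The Serping1 value for morphine in antibiotic mice was -0.58 (SE 0.236, adjusted p = 0.105 by edgeR), and -0.27 (adjusted p = 0.39 by edgeR) without that library. For antibiotics under saline it was 0.31 (SE 0.223), and 0.00 without it. Scaled to the microglia markers that value was 0.60 with all libraries (adjusted p = 0.0146 by edgeR), where the median of all genes was 0.31 and 9150 of 14564 genes passed.

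Cd59a, the membrane inhibitor of the terminal attack complex, had the narrowest spread of the less abundant genes. It ran from 4.11 through a median of 4.75 to 5.75 CPM with water plus saline and from 4.31 through 5.37 to 5.81 CPM with antibiotics plus saline. The 10 morphine libraries lay between 3.85 and 6.50 CPM. Its log2 values were between -0.08 and 0.20 in the 5 comparisons, with SEs of at most 0.132. Scaled to the microglia markers Cd59a was 0.41 higher with antibiotics under saline (adjusted p = 0.0229 by edgeR), 0.64 higher with antibiotics under morphine (adjusted p = 0.00113 by edgeR) and 0.73 higher with both treatments (adjusted p = 9.88e-05 by edgeR), where the median of all genes was 0.31, 0.43 and 0.62. Its paralog Cd59b did not pass the filter on low counts.

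The receptors for the C3 and C5 fragments, C3ar1 and C5ar1, did not pass in any comparison under the TMM scaling. C3ar1 ran from 1.56 through a median of 1.99 to 2.76 CPM with water plus saline, stood at 1.37, 1.57, 1.95, 1.74 and 2.24 CPM with water plus morphine, ran from 0.758 through 1.89 to 2.51 CPM with antibiotics plus saline, and stood at 2.98, 2.17, 2.22, 1.63 and 2.89 CPM with antibiotics plus morphine. Its values were -0.24 (SE 0.224) with morphine in water mice, 0.40 (SE 0.222) with morphine in antibiotic mice, -0.23 (SE 0.219) with antibiotics under saline and 0.41 (SE 0.227) with antibiotics under morphine. The difference between its morphine changes was 0.64 (SE 0.315, unadjusted p = 0.0545, adjusted p = 0.415 by edgeR).

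C3ar1, a gene that microglia are known to express, was also set against the microglia markers. Relative to them it averaged -3.29 ± 0.31 (SD, n = 6) with water plus saline, -3.32 ± 0.20 (n = 5) with water plus morphine, -3.24 ± 0.42 (n = 6) with antibiotics plus saline and -2.51 ± 0.29 (n = 5) with antibiotics plus morphine. The lowest library with both treatments (-2.87) equalled the highest untreated library. Scaled to the markers, C3ar1 was 0.71 higher with morphine in antibiotic mice (adjusted p = 0.00779 by edgeR), 0.83 higher with antibiotics under morphine (adjusted p = 0.00156 by edgeR) and 0.77 higher with both treatments (adjusted p = 0.00134 by edgeR). The median of all genes under that scaling was 0.30, 0.43 and 0.62 in these comparisons.

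C5ar1 was counted 0 to 12 times per library. Its counts were 0, 7, 11, 7 and 9 with water plus morphine, the only group with a library at 0, and 9, 11, 12, 12 and 6 with antibiotics plus morphine. Group means were 0.678 CPM with water plus saline, 0.503 with water plus morphine, 0.633 with antibiotics plus saline and 0.797 with antibiotics plus morphine, in ranges that all overlapped. Its widest value in the pairwise comparisons was 0.58 (SE 0.366, adjusted p = 0.296 by edgeR) with antibiotics under morphine, and 0.32 without the library at 0. Scaled to the microglia markers it was 1.02 higher there (adjusted p = 0.0211 by edgeR) and 0.82 higher with both treatments (adjusted p = 0.0381 by edgeR). The median of all genes was then 0.43 and 0.62, and 10523 and 12644 of 14564 genes passed.

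Inside groups, C1qa and C1qb varied together from library to library. With group means removed, their log2 levels correlated with r = 0.80 (permutation p = 3e-05, adjusted p = 0.00108) and rho = 0.85 (permutation p = 2e-05, adjusted p = 0.00072) over 22 libraries, and r was 0.82 without the 2 libraries farthest from the median. This was the only one of 36 pairs to pass adjustment. C1qc correlated with C1qa at r = 0.54 (permutation, adjusted p = 0.257) and with C1qb at r = 0.58 (permutation, adjusted p = 0.207). The r of C4b with the 3 chains lay between -0.08 and 0.07.

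Over all 22 libraries and 12551 genes (12552 for C3), the patterns most like each gene's were found by Pearson's r of log2 CPM, a description in which libraries share group, depth and composition. The genes most like C1qa were C1qb (r = 0.95), Creld1 (0.95) and Mien1 (0.94). Those most like C1qb were C1qa, the colony-stimulating factor receptor Csf1r (0.94) and the fractalkine receptor Cx3cr1 (0.94), both microglial. Those most like C1qc were Chchd10 (0.93), Stard10 (0.92) and S100a1 (0.91). C4b was most like Zfp784 (0.86), Alkbh3 (0.85) and Eif4b (0.85), Serping1 most like Igf2 (0.74), Gtf2h4 (0.74) and Slc6a13 (0.73), and C3ar1 most like Pus10 (0.79). Cd59a had no gene above Ppp2r2d (0.70), and C3 was most like Spag5 (0.83) at counts of 2 to 22.

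The rest of the pathway was read from a list of 53 further complement genes, of which 52 were in the table and 30 passed the filter. Among those 30, 4 were higher and 2 lower with morphine in water mice, where 3.91% of all genes were higher and 2.67% lower. The counts were 4 and 4 with morphine in antibiotic mice (6.43% and 6.62% of all genes), 0 and 1 with antibiotics under saline (0.542% and 0.865%), 4 and 3 with antibiotics under morphine (8.42% and 9.58%), and 7 and 6 with both treatments (17.6% and 18.2%). The shares with both treatments lay near those of all genes. None passed for the difference between the morphine changes by edgeR, and 3 were lower at an unadjusted p under 0.05. The median change over the 30 genes lay between -0.03 and 0.08 in the 5 pairwise comparisons.

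**Figure D5:**
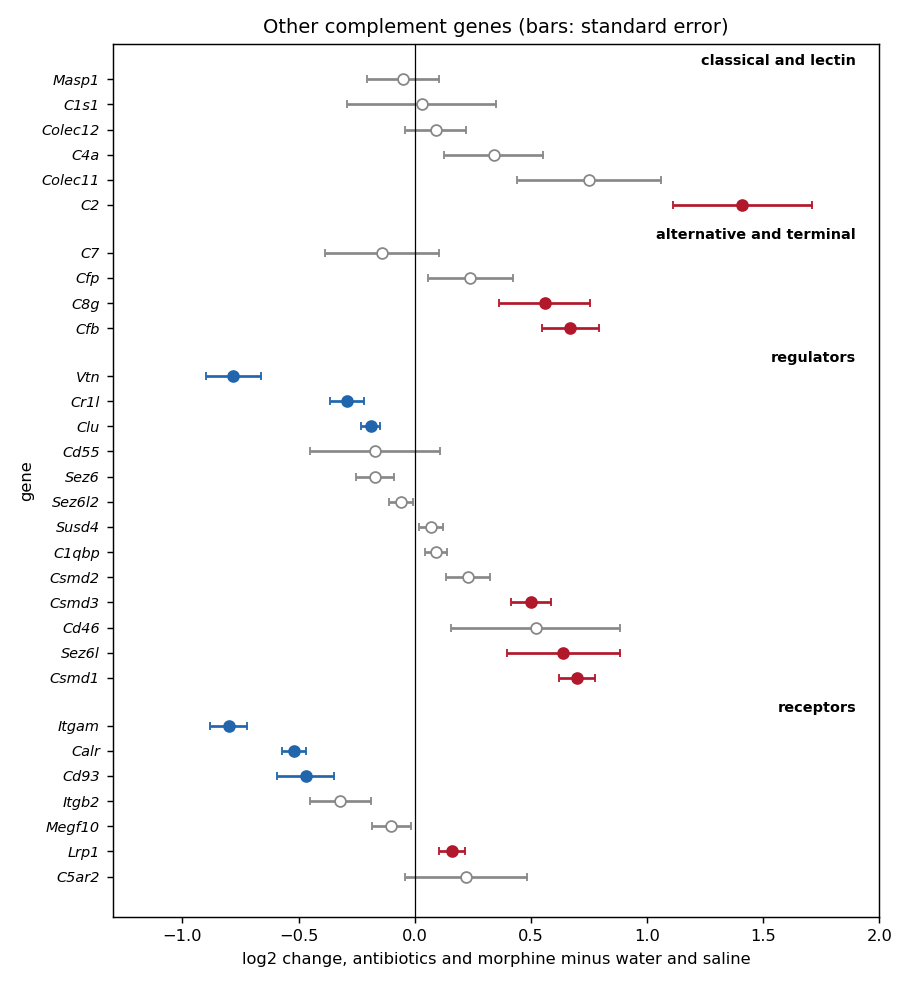
Log2 change with standard error (horizontal axis) of 30 further complement genes between antibiotics plus morphine and water plus saline, grouped by role. Filled points passed the threshold, red higher and blue lower: 7 lie right of 0, led by C2 at 1.41, and 6 left of 0, led by Itgam at -0.80.

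C2 and Cfb, the serine proteases of the classical and alternative C3 convertases, were both higher with both treatments. C2 averaged 1.20 ± 0.50 CPM (SD, n = 6) with water plus saline, 1.65 ± 0.516 (n = 5) with water plus morphine, 1.57 ± 0.763 (n = 6) with antibiotics plus saline and 3.24 ± 0.882 (n = 5) with antibiotics plus morphine. It rose by 1.41 with both treatments (SE 0.298, adjusted p = 0.000803 by edgeR) and by 0.99 with antibiotics under morphine (SE 0.297, adjusted p = 0.0225 by edgeR). With morphine in antibiotic mice C2 rose by 1.04, a call lost without antibiotics plus morphine library 1 or 3 (adjusted p = 0.0644 and 0.0576 by edgeR). Cfb averaged 5.68 ± 0.35 CPM (n = 6), 6.61 ± 0.983 (n = 5), 6.33 ± 0.799 (n = 6) and 9.07 ± 1.73 (n = 5) in the same order. It rose by 0.67 with both treatments (SE 0.123, adjusted p = 0.000192 by edgeR), by 0.46 with antibiotics under morphine and by 0.52 with morphine in antibiotic mice. With antibiotics under morphine the groups did not overlap, as for 6.26% of all genes in that direction. Without antibiotics plus morphine library 3 the value under morphine was 0.36 (adjusted p = 0.0527 by edgeR). With the length slope as a covariate C2 (1.85) and Cfb (0.65) no longer passed with both treatments, nor C2 (1.33) and Cfb (0.50) with morphine in antibiotic mice. C2 is named outside the rule for other complement genes, after its values were seen. Cfb met that rule with antibiotics under morphine only, and its other changes were added after they were seen. C1s1, a protease of C1, stood at about 1 CPM in every group.

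Of 7 receptors for opsonised material and complement fragments, 1 was higher with morphine in water mice, against 3.91% of all genes, and none lower. With morphine in antibiotic mice 2 were lower (6.62% of all genes), with antibiotics under saline 1 (0.865%) and with antibiotics under morphine 2 (9.58%). With both treatments 3 were lower (18.2%) and 1 higher (17.6%). Itgam encodes the alpha chain of complement receptor 3, which binds cleaved C3 and is carried by microglia. It averaged 37.6 ± 2.87 CPM (SD, n = 6) with water plus saline, 34.6 ± 2.20 (n = 5) with water plus morphine, 29.7 ± 3.17 (n = 6) with antibiotics plus saline and 21.6 ± 2.44 (n = 5) with antibiotics plus morphine. It fell by 0.34 with antibiotics under saline (SE 0.0747, adjusted p = 0.0235 by edgeR), by 0.68 with antibiotics under morphine (SE 0.0824, adjusted p = 6.69e-06 by edgeR) and by 0.80 with both treatments (SE 0.0796, adjusted p = 2.43e-07 by edgeR). With morphine Itgam fell by 0.46 in antibiotic mice (SE 0.0804, adjusted p = 0.00088 by edgeR) and had a value of -0.12 in water mice (adjusted p = 0.367 by edgeR). The former call was lost with the length slope as a covariate (-0.43, adjusted p = 0.0666 by edgeR). The call under saline was lost without water plus saline library 3 or 5 or antibiotics plus saline library 4 or 6 (adjusted p up to 0.0772 by edgeR), without the 2 libraries with the most Malat1 (adjusted p = 0.0599 by edgeR), with only the groups compared in the fit (adjusted p = 0.0558 by edgeR) and with the length slope as a covariate (-0.33, adjusted p = 0.107 by edgeR). Its beta chain partner Itgb2 had a value of -0.32 with both treatments (SE 0.131, adjusted p = 0.0554 by edgeR). It did not pass there, and did with only the groups compared in the fit (adjusted p = 0.0314) or without water plus saline library 8 or antibiotics plus morphine library 2 or 5 (adjusted p of 0.045, 0.0469 and 0.0352). Calr, a chaperone of the endoplasmic reticulum that also binds C1q at the cell surface, fell from 398 to 279 CPM with both treatments (log2 change -0.52, SE 0.0518). The endocytic receptor Lrp1 rose by 0.24 with morphine in water mice (SE 0.0557, adjusted p = 0.0129 by edgeR), with a value of 0.11 with the length slope as a covariate, which did not pass.

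Of 13 regulators, 3 were higher and 2 lower with morphine in water mice (3.91% and 2.67% of all genes). With morphine in antibiotic mice 2 were higher and 2 lower (6.43% and 6.62%), and with antibiotics under saline none passed (0.542% and 0.865%). With antibiotics under morphine 1 was higher and 1 lower (8.42% and 9.58%), and with both treatments 3 and 3 (17.6% and 18.2%). Csmd1 and Csmd3, large neuronal membrane proteins with complement control domains, rose with morphine in water mice by 0.34 and 0.39 and in antibiotic mice by 0.48 and 0.50. With the length slope as a covariate the changes in water mice were 0.02 and 0.29, those in antibiotic mice 0.27 and 0.44, and none passed. Csmd1 also rose by 0.36 with antibiotics under morphine (SE 0.0808, adjusted p = 0.00325 by edgeR), and passed with the covariate too. Csmd3 had a value of 0.11 there, which did not pass. With both treatments Csmd1 rose by 0.70 (adjusted p = 7.55e-07 by edgeR), a call lost with the covariate (0.36, adjusted p = 0.0822 by edgeR). Clu, the secreted chaperone clusterin, which blocks the attack complex, fell by 0.22 with morphine in water mice (SE 0.042, adjusted p = 0.0039 by edgeR), from 801 ± 21.4 CPM (SD, n = 6) to 686 ± 35.9 (n = 5). Vtn, vitronectin, an inhibitor of the attack complex that brain pericytes make, fell by 0.78 with both treatments (SE 0.119, adjusted p = 4.72e-05 by edgeR), from 83.4 ± 6.18 CPM (n = 6) to 48.7 ± 4.62 (n = 5). Neither the Clu change (-0.10) nor the Vtn change (-0.38) passed with the length slope as a covariate.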

How the data were processed

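RNA of the nucleus accumbens was extracted with TRIzol and copied to cDNA with a SMARTer kit, per the labels' protocols. STAR 2.4.0, FastQC and edgeR are named in the submitters' processing notes, and the build, annotation and strand setting were not stated there, so overlapping and antisense genes cannot be told apart. The authors deposited raw counts per gene and a table of normalised signal. The deposited signal (10874 genes, 4 of the 9 genes described here) is the count over a constant of the library, to a relative deviation of at most 7.7e-09, and was not used further. The 5 summary entries, 20.6% to 26.4% of a library's counts, were removed.

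In R 4.3.3 with edgeR 4.0.16, genes were kept with filterByExpr (minimum count 10), scaled by TMM and fitted as 4 groups in 1 robust quasi-likelihood model. Log2 CPM used a prior count of 2. The labels give no batch. Correlations used 100000 permutations within groups. Alternatives used DESeq2 1.42.0 and limma 3.58.1. Transcript length, the longest coding transcript by symbol, was found for 91.8% of genes. Within groups, 50 pairs of libraries differed by 3.17 to 23 times the variance of a library sequenced again, so none was a duplicate. The pipeline was tested on simulated data. The 9 genes, the gene lists and the comparisons were chosen with earlier results of these data known. Named are all 9 genes, at most 4 further complement genes per comparison by smallest p, at most 3 microglia markers per comparison, and, for 8 of the 9, the 3 genes most like each among genes with a mean log2 CPM of at least 1. C2, C4a, C1s1 and Itgb2 were added after their values were seen. So were the Cfb values with both treatments and with morphine in antibiotic mice. A further gene of the complement list is not reported here.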

Additional observations from a re-analysis of the deposited data

Results flagged for a closer look

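Of 36 groups of libraries examined, 9 genes in 4 groups each, 4 held a library whose gap to its nearest neighbour was large for the range of the group (Dixon's criterion at 95%). Chance gives about 1 in 20.

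Library 1 of the antibiotics plus saline group was high for C1qa, at 60.8 CPM against a group median of 46.3, and for Serping1, at 8.30 CPM against 3.26. It was also the highest of its group for Igf2 (64.1 CPM) and Slc6a13 (11.7 CPM), genes of meningeal fibroblasts. Both genes were found by their likeness to Serping1 over these same libraries, so they are not independent of its high value. Without library 1 the C1qa change with antibiotics under saline was -0.43 in place of -0.35. The Serping1 change with morphine in antibiotic mice was then -0.27 in place of -0.58. The part of fibroblast RNA in these values was not tested.

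Library 2 of the antibiotics plus morphine group was high for C3, at 1.47 CPM against a group median of 0.722, which is 19 counts. Without it C3 was 1.16 higher with both treatments and no longer passed (adjusted p = 0.121 by edgeR).

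Library 5 of the antibiotics plus morphine group was low for C5ar1, at 0.433 CPM against a median of 0.853, which is 6 counts. C5ar1 passed in no comparison with or without it.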

How the results depend on the processing

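Over the 9 genes and 6 comparisons, 475 of 546 values under other settings kept their direction and side of the threshold, 27 no longer passed, 14 passed newly and 30 changed sign. Leaving out 1 library gave 628 of 686 unchanged in this sense, 29 no longer passing, 5 newly passing and 24 of changed sign. Of the sign changes, 24 and 24 were of values that passed neither way. The causes of the changes below were not tested unless stated. RLE scaling, no filter, a stricter filter, DESeq2 and limma-voom moved no count of called genes among the 9 by over 1.5 times. C3 has no adjusted p by DESeq2 in 4 comparisons and C5ar1 no value where a filter removes it. Counts of 2 to 22 for C3 and 0 to 12 for C5ar1 limit what can be seen for them.

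Leaving out 1 library, the number of the 9 genes called ran from 1 to 3 for morphine in water mice, from 1 to 3 for morphine in antibiotic mice, from 0 to 3 for antibiotics under saline, from 3 to 3 for antibiotics under morphine, from 0 to 0 for the difference and from 4 to 5 with both treatments. The count under saline was 0 without antibiotics plus saline library 4. Values that changed sign, none of them past the threshold, ran from -0.08 to 0.09 for C4b and from -0.12 to 0.04 for Serping1 with morphine in water mice. With morphine in antibiotic mice they ran from -0.38 to 0.35 for C3 and from -0.08 to 0.06 for Cd59a, with antibiotics under saline from -0.18 to 0.01 for C5ar1, and for the difference from -0.10 to 0.02 for C1qa and from -0.06 to 0.05 for C1qb.

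With only the groups compared in the fit, 1 gene was called with morphine in antibiotic mice and 1 with antibiotics under saline, in place of 2 and 2. Without the 2 libraries with the most Malat1 the counts were again 1 and 1. Without antibiotics plus saline library 1 and water plus morphine library 4 together, a setting chosen after seeing the data, 1 gene was called with morphine in antibiotic mice, and C4b and Serping1 with morphine in water mice were 0.04 and 0.01.

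The labels' replicate numbers showed no clear pairing of the libraries. Deviations from group means correlated between -0.48 and 0.35 over 25 pairs of the same number (median 0.018), of which 8 were over 0.1. Over 156 pairs of other numbers they ran from -0.53 to 0.67 (median -0.009), and 44 were over 0.1. These values do not exclude a pairing. With the replicate number as a block, 1 gene in place of 3 was called with morphine in water mice (C1qa -0.30, adjusted p = 0.0629, and C1qb -0.28, adjusted p = 0.0764, by edgeR, were not), where all genes called went from 959 to 281, Serping1 there was 0.03, and C5ar1 was 0.07 with antibiotics under saline. C4b with both treatments was 0.38 with the block (adjusted p = 0.0741 by edgeR), past the threshold without it.

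With the length slope as a covariate, 0 of the 9 genes were called for morphine in water mice, 0 for morphine in antibiotic mice and 0 for antibiotics under saline, and 1 with both treatments. Genes called in all went from 5205 to 519 with both treatments and from 1900 to 138 with morphine in antibiotic mice. In water mice C3ar1, C4b and Serping1 were 0.12, 0.20 and 0.64 with morphine. C3 was 0.81 with morphine in antibiotic mice, C1qb -0.05 for the difference, and C5ar1 and Serping1 -0.05 and 0.45 with both treatments. C3 was 0.19 with morphine in antibiotic mice by limma-voom, and C1qb 0.00 for the difference with the stricter filter.

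Scaling to the microglia markers raised the median of all genes by 0.18, 0.30, 0.31, 0.43 and 0.62 in the 5 pairwise comparisons and by 0.12 for the difference, so it turns small falls positive by construction. The number of the 9 genes called was 0 with morphine in water mice, 2 with morphine in antibiotic mice, 4 with antibiotics under saline, 5 with antibiotics under morphine and 6 with both treatments, all higher. Over all 14564 genes, 1997, 7927, 9150, 10523 and 12644 were called in the same order, in either direction. With morphine in water mice C4b was 0.15, Cd59a 0.09 and Serping1 0.13. With morphine in antibiotic mice C1qb was 0.06, C1qc 0.14 and C3 0.18. With antibiotics under saline C1qc was 0.05, C3ar1 0.06, C5ar1 0.19 and Csf1r 0.05. With antibiotics under morphine C1qa was 0.02, C1qb 0.11, C1qc 0.39, Serping1 0.20 and Calr 0.07. C1qa was 0.08 for the difference. With both treatments C1qb was 0.03, C1qc 0.19, Serping1 0.33, Calr 0.10 and Itgb2 0.28.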
